A study of Mus musculus with 6 samples.

Results

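The LGI proteins and the ADAM22 family receptors comprised 7 genes, taken by symbol from 55416 Ensembl gene rows of a count table: the ligands Lgi1, Lgi2, Lgi3 and Lgi4 and the receptors Adam11, Adam22 and Adam23. The family was chosen by its names, but selected on a measured value: the level of Lgi2 in EU against PBS libraries, whose p was among the smallest of all genes in an earlier analysis of these data. The differences of the members between the groups are therefore descriptions and no test is read from them. All 7 genes passed the filter on low counts and were among the 18511 genes tested.

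The study asked which RNAs made in the newborn hippocampus are still present weeks later. Mouse pups received ethynyluridine (EU, which cells use in place of uridine when they make RNA and which can be coupled to biotin by click chemistry) at 50 mg/kg under the skin once a day on postnatal days 3 to 5, and the hippocampus was taken on postnatal day 36. Pups of the other group received an equal volume of phosphate-buffered saline (PBS), and their RNA went through the same click reaction and streptavidin pulldown, so that the PBS libraries measure background binding. There were 3 EU and 3 PBS libraries; the sources used here give no strain, sex, genotype or number of animals per library, and p-values measure the spread between these libraries, which may be partly technical.

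LGI proteins are secreted by neurons and glia and carry leucine-rich repeats followed by EAR repeats (also called epitempin repeats), with which LGI1 binds the receptors ADAM22 and ADAM23. These receptors belong to the ADAM family of membrane proteinases but lack the catalytic zinc site, and they act in adhesion and in anchoring other proteins. LGI1 holds ADAM22 on the postsynaptic side and ADAM23 on the presynaptic side of the cleft together, and ADAM22 is tied through its tail to PSD-95 family scaffolds and so to AMPA receptors. In the hippocampus this complex is known for its role in epilepsy: LGI1 is mutated in a familial temporal lobe epilepsy and is a target of autoantibodies in limbic encephalitis.

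RefSeq promoter windows, from 250 bases before to 50 after the annotated start, were on hand for 4 of the 7 genes. Those of Lgi2 and Lgi1 are shown because these ligands had opposite signs in the comparison below and the EU and PBS libraries were furthest apart for Lgi2. Both are in build GRCm38.p6, an earlier build than that of the counts, and run 5′ to 3′ on the gene's own strand. Lgi2 lies at chr5:52566257-52566556 on the minus strand and Lgi1 at chr19:38264437-38264736 on the plus strand. Capitals mark matches, on either strand, to GGGCGG (the GC box), CCAAT and TATAAA.
Lgi2: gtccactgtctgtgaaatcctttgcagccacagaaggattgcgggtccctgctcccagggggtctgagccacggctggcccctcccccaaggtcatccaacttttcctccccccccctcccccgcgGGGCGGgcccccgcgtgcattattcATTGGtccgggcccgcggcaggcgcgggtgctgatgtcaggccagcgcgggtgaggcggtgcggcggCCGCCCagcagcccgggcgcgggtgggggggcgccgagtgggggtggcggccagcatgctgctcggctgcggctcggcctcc
Lgi1: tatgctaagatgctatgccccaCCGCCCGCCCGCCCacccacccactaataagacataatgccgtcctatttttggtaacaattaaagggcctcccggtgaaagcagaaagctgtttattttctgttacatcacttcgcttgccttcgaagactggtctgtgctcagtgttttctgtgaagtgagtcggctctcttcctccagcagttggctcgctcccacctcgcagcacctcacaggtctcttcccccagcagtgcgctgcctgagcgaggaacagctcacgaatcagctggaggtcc
The Lgi2 window held 2 GC boxes, 1 CCAAT box and 27 CpG dinucleotides at 73.3% GC. The Lgi1 window held 3 GC boxes, which overlap each other, no CCAAT box and 13 CpG dinucleotides at 54.0% GC. Neither held TATAAA. Of 32851 promoter windows of this length, 35.7% held a GC box, 37.4% a CCAAT box and 13.6% TATAAA, and the median was 7 CpG dinucleotides at 52.7% GC. These matches describe the letters of the windows and are not evidence of binding.

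Library totals lay between 39886723 and 51279929 counts in EU and between 43838026 and 58301239 counts in PBS. The members took 0.0857% to 0.0921% of counts in EU and 0.0860% to 0.0875% in PBS. The smallest count of any member in any library was 1163, for Lgi4, with an exact Poisson interval of 1097 to 1232 at the 95% level that covers counting error only. PBS replicate 2 stood apart, with 19243 genes detected against 23816 to 26372 in the other libraries. Hippocampal markers were present in every library; the dentate granule neuron gene Prox1 averaged 153.6 CPM (counts per 1000000 of the library, scaled by TMM factors) in EU and 178.4 CPM in PBS. The 92 spike-in rows held 0 counts, so a yield that differed for all RNAs alike would not show.

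Lgi2 had the highest ratio of EU to PBS among the members. In dogs a truncating Lgi2 variant causes a juvenile epilepsy that remits. Lgi2 (ENSMUSG00000039252, chromosome 5, minus strand, 52690859 to 52723804 in GRCm39) had 3353, 2813 and 3593 reads in EU replicates 1 to 3, against 2170, 2151 and 2757 reads in PBS replicates 1 to 3. Scaled, these were 65.05, 70.14 and 85.33 CPM in EU and 46.19, 49.95 and 47.83 CPM in PBS. Every EU library lay above every PBS library, EU replicate 3 was the highest, and the EU libraries were more spread than the PBS libraries. The means were 73.5 CPM ± 10.6 in EU and 48.0 CPM ± 1.88 in PBS (n = 3 each, SD), and the log2 fold was 0.61 (SE 0.0986), or 1.53-fold. Without EU replicate 3 the log2 fold was 0.49, and without EU replicate 1 it was 0.69.

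Lgi1, the ligand of the synaptic complex, had a lower mean in EU. Lgi1 (ENSMUSG00000067242, chromosome 19, plus strand, 38252984 to 38300662) had 124.6, 118.5 and 133.2 CPM in EU and 137.5, 144.5 and 128.2 CPM in PBS. The groups overlapped, with EU replicate 3 above PBS replicate 3. The means were 125.4 CPM ± 7.38 in EU and 136.7 CPM ± 8.16 in PBS (n = 3 each, SD), and the log2 fold was -0.12 (SE 0.0675) that lay between -0.18 and -0.08 when 1 library was left out.

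Lgi3, a ligand made in the brain, had values on the same side as Lgi1. Lgi3 (ENSMUSG00000033595, chromosome 14, plus strand, 70768125 to 70775764) had 92.14, 99.74 and 96.23 CPM in EU and 118.6, 103.3 and 96.89 CPM in PBS. The groups overlapped, and PBS replicate 1 was the highest library. The log2 fold was -0.15 (SE 0.0799), and -0.07 without PBS replicate 1.

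Lgi4, best known in mice for its need in the myelination of peripheral nerve by Schwann cells, was the scarcest member. Lgi4 (ENSMUSG00000036560, chromosome 7, plus strand, 30758767 to 30770360) had 30.46, 30.70 and 32.51 CPM in EU and 31.10, 27.00 and 26.94 CPM in PBS. PBS replicate 1 lay within the EU range, so the groups overlapped. The log2 fold was 0.14 (SE 0.0896).

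**Figure D1:**
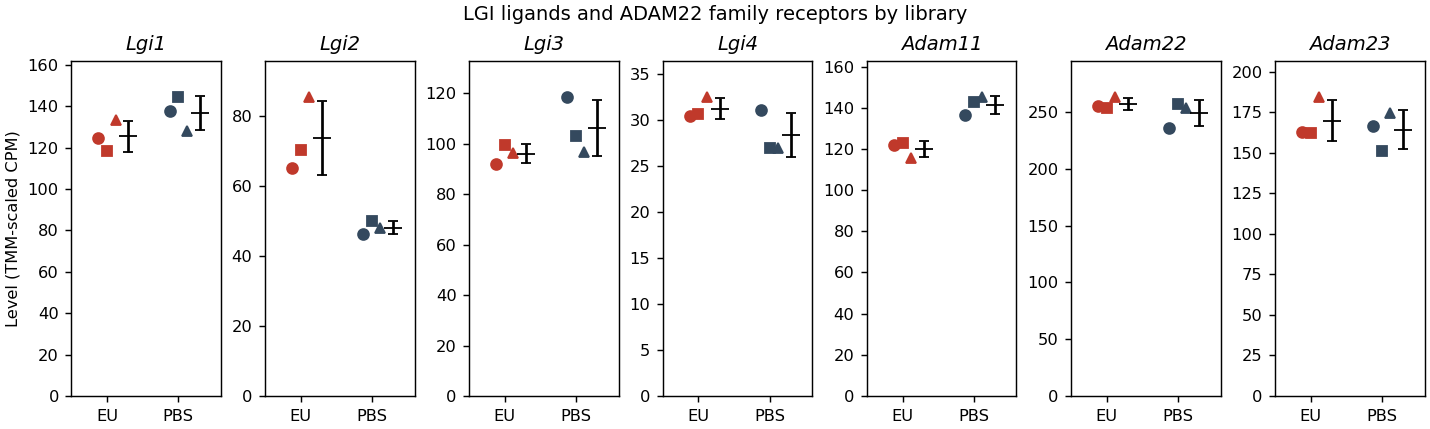
Level of each member in TMM-scaled CPM in the 3 EU libraries (left in each panel) and the 3 PBS libraries (right); circles, squares and triangles are replicates 1, 2 and 3, and the black bar is the mean with its SD. Axes start at 0 and differ between panels. The groups are apart for Lgi2, with EU between 65.05 and 85.33 and PBS between 46.19 and 49.95, and for Adam11, where EU is below PBS.

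Among the receptors, Adam11 had lower values in EU. In mice ADAM11 is needed to place Kv1 potassium channels at basket cell terminals of the cerebellum. Adam11 (ENSMUSG00000020926, chromosome 11, plus strand, 102652265 to 102671088) had 121.8, 123.0 and 115.5 CPM in EU and 136.7, 142.7 and 145.3 CPM in PBS. Every EU library lay below every PBS library, and the spread within each group was small. The means were 120.1 CPM ± 4.01 in EU and 141.6 CPM ± 4.40 in PBS (n = 3 each, SD), and the log2 fold was -0.24 (SE 0.0561) that lay between -0.27 and -0.21 when 1 library was left out.

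Adam22, the receptor that LGI1 binds on the postsynaptic side, had the most reads of the members. Adam22 (ENSMUSG00000040537, chromosome 5, minus strand, 8122352 to 8418160) had 255.3, 253.4 and 263.2 CPM in EU and 236.3, 257.2 and 253.4 CPM in PBS. The groups overlapped, and PBS replicate 1 was the lowest library. The log2 fold was 0.05 (SE 0.0522).

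Adam23, the presynaptic partner of LGI1, likewise had overlapping groups. Adam23 (ENSMUSG00000025964, chromosome 1, plus strand, 63485050 to 63635435) had 162.9, 161.9 and 184.4 CPM in EU and 166.3, 151.2 and 174.8 CPM in PBS. EU replicate 3 was the highest library and PBS replicate 2 the lowest. The log2 fold of 0.05 (SE 0.0737) turned to -0.02 without EU replicate 3 and to -0.01 without PBS replicate 2.

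In edgeR's quasi-likelihood test across all genes, 0 of the 7 members passed an adjusted p of 0.05, as did 0 of 18511 genes (0%). The adjusted p of the members other than Lgi2, given as a description, lay between 0.272 for Adam11 and 0.895 for Adam23. DESeq2 put 2 members past its adjusted p of 0.05, Lgi2 and Adam11, where it called 3.47% of the genes to which it gave an adjusted p. Without the filter on low counts edgeR put 1 member, Lgi2, past that threshold, as it did 0.797% of genes. The CPM of the groups did not overlap for 2 of 7 members, against 15.7% of all genes tested. All EU libraries were above all PBS libraries for 1 member (8.52% of genes) and below them for 1 member (7.18% of genes). An unadjusted p under 0.05 was reached by the same 2 members, Lgi2 and Adam11, and by 7.88% of all genes, or 1459. Nothing is read from these counts, because the comparison itself drew attention to the family.

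The signs were mixed among the ligands and among the receptors. Of the 4 ligands 2 were higher and 2 lower by sign in EU (median log2 fold 0.01), and of the 3 receptors 2 were higher and 1 lower (median 0.05). The median of all genes tested was 0.011. The summed CPM of the ligands was 312.3, 319.1 and 347.3 in EU and 333.3, 324.7 and 299.8 in PBS. The summed CPM of the receptors was 540.0, 538.3 and 563.1 in EU and 539.3, 551.1 and 573.5 in PBS. Both sums overlapped between the groups.

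**Figure D2:**
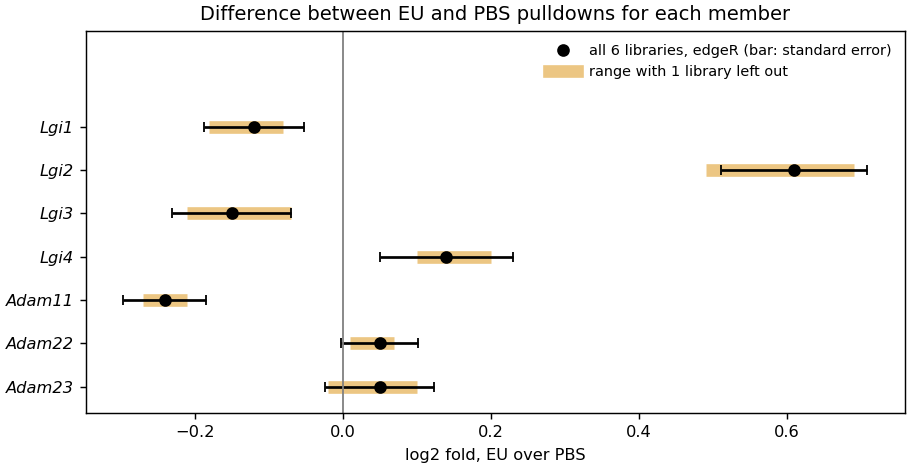
Log2 fold of each member, EU over PBS, from edgeR with all 6 libraries (black points, with the standard error as the bar), and the range of the fold when each library was left out in turn (yellow). The whole range lies above 0 for Lgi2, Lgi4 and Adam22 and below 0 for Lgi1, Lgi3 and Adam11, while that of Adam23 spans 0.

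Levels per length were used to order the members, as CPM per kilobase of annotated exon. By this level Lgi3 came first among the ligands at 25.94 ± 2.39 (SD over the 6 libraries), followed by Lgi1 at 11.54 ± 0.819, Lgi2 at 9.306 ± 2.38 and Lgi4 at 6.498 ± 0.50. Lgi3 was 2.24-fold the level of Lgi1 in EU and 2.27-fold in PBS. Lgi1 and Lgi2 were not separated in EU, where the ratio of Lgi2 to Lgi1 in level per kilobase was 0.908, 1.03 and 1.11, whereas in PBS it was 0.584, 0.601 and 0.649. Lgi2 lay above Lgi4 in 6 of 6 libraries, although only 1.04-fold in PBS replicate 1.

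Within the summed ligand level per kilobase, the part of Lgi2 was 20.9% ± 1.95 in EU and 14.0% ± 1.24 in PBS (n = 3 each, SD). That of Lgi3 was 45.9% ± 2.13 in EU and 51.5% ± 2.11 in PBS (n = 3 each, SD). That of Lgi1 was 20.6% ± 0.965 in EU and 22.8% ± 1.32 in PBS (n = 3 each, SD). The summed ligand level itself averaged 53.8 CPM per kilobase ± 2.69 in EU and 52.8 ± 3.52 in PBS (n = 3 each, SD). That of Lgi4 was 12.7% ± 0.256 in EU and 11.7% ± 0.470 in PBS (n = 3 each, SD). The sums overlapped between the groups, whereas none of the 4 shares did. For Lgi1 this was narrow, with 21.4% in EU replicate 1 and 21.5% in PBS replicate 1. In CPM, a different measure, the groups did not overlap for 15.7% of all genes tested. Nothing is read from the shares, because Lgi2 drew attention to the family. Shares of 1 sum are not independent of each other, so a higher share of Lgi2 leaves a smaller summed share for the other ligands. It need not lower each of them. The shares of Lgi1 and Lgi3 were lower in EU, whereas that of Lgi4 was higher (12.7% against 11.7% in PBS). The CPM of Lgi1, Lgi3 and Lgi4 overlapped between the groups.

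The order of the receptors depended on the length used. By the union of exons Adam11 came first at 23.08 ± 2.18 CPM per kilobase (SD over the 6 libraries), then Adam22 at 17.64 ± 0.628 and Adam23 at 9.321 ± 0.639. By the longest transcript the levels were 27.38 for Adam22, 25.98 for Adam23 and 25.64 for Adam11. Adam23 moved most, since its exons together span 17907 bases and its longest transcript 6426 bases. The ligands kept the order Lgi3, Lgi1, Lgi2 and Lgi4 with both lengths, but by the longest transcript the ratio of Lgi2 to Lgi1 was 0.629, 0.713 and 0.772 in EU, against 0.405, 0.417 and 0.450 in PBS. Lgi2 was then below Lgi4 in 1 library, PBS replicate 1, at a ratio of 0.929. A change of length multiplies such a ratio by the same factor in every library, so it leaves the relation between EU and PBS as it is. The ratio of Adam11 to Adam22, by the union of exons, was 1.21, 1.23 and 1.11 in EU and 1.46, 1.40 and 1.45 in PBS.

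**Figure D3:**
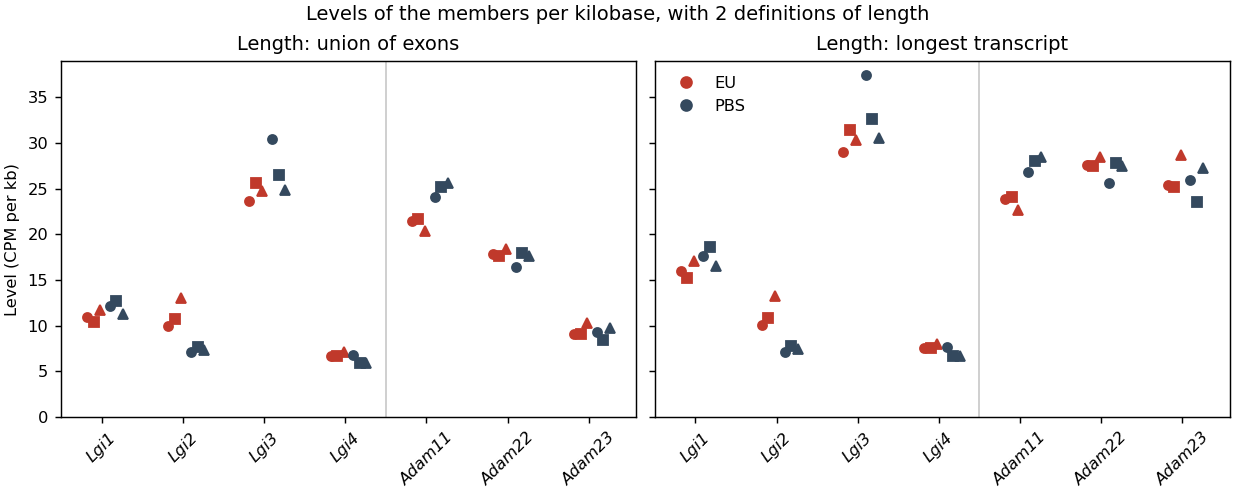
Level of each member in CPM per kilobase in the 6 libraries (EU red and to the left, PBS dark and to the right of each gene; circles, squares and triangles are replicates 1, 2 and 3), with length taken as the union of exons (left panel) or the longest transcript (right panel). Lgi3 leads the ligands in both panels, whereas the receptors are apart in the left panel and lie close together in the right one.

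EU can enter RNA at uridines, so the members' uridine content was counted in the longest annotated transcript. Adam22 had 2621 uridines in 9245 bases (28.4%), more than 97.5% of the tested genes. Lgi1 had 2043 in 7780 bases (26.3%), Adam23 1732 in 6426 bases (27.0%) and Lgi2 1669 in 6456 bases (25.9%). Adam11 had 1044 in 5102 bases (20.5%), Lgi4 886 in 4037 bases (21.9%) and Lgi3 699 in 3174 bases (22.0%). The median of the tested genes was 783 uridines and 25.0%. The share in Adam11 was higher than in 11.8% of tested genes. For Lgi4 this was 22.1% and for Lgi3 22.8%. The share in Lgi2 was near the median and below those in Lgi1, Adam22 and Adam23. Whether uridine content bears on the folds was not tested.

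Genes that overlap a member held few counts. Relative to its member, the gene with the most counts among those that overlap one in the deposited coordinates was Fxyd3, on the strand opposite Lgi4, with 55 counts over the 6 libraries or 0.659% of those of Lgi4. In counts alone the highest was the pseudogene Gm50141 at Lgi1, with 89, or 0.242% of those of Lgi1. For Lgi2 the overlapping rows together held 6 counts, against 16837 for Lgi2. Adam11 and Lgi3 overlapped no other gene of the table. The strand setting of the counting is not stated, so these counts do not show how many reads an overlap added to or took from a member.

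The genes whose profile over the 6 libraries was most like that of Lgi2 were named by the root mean square difference between log2 CPM values centred on each gene's mean, among 11247 candidates with a mean of at least 5 CPM. Rasgef1b came first (difference 0.0568), with 19.81, 24.29 and 27.86 CPM in EU and 15.26, 16.60 and 16.10 CPM in PBS. Thbs4 (0.0595), Klhdc8a (0.0744), the corticotropin-releasing hormone receptor gene Crhr1 (0.0771) and Plcxd2 (0.0843) followed, with log2 folds of 0.51, 0.59, 0.58 and 0.65. The log2 CPM of Lgi2 itself had an SD of 0.357 over the 6 libraries. With 6 libraries and so many candidates, some close profiles arise in any case. The nearest profiles to the other members were those of Rnf103 and Smg8 for Lgi1, Atl3 and Cnnm2 for Lgi3, and Galnt11 and Galnt1 for Lgi4. For the receptors they were those of Sephs2 and Ap2a2 for Adam11, Usp8 and Ensa for Adam22, and Adcy2 and Dgke for Adam23.

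Summed markers of neighbouring cortex and of some hippocampal fields did not overlap between the groups either. In bulk tissue, fewer cells of a type and less RNA per cell cannot be told apart. In these pulldowns a difference in labelled RNA or in background binding cannot be told apart from either. Of 12 subiculum and neocortex markers 10 were higher by sign in EU, and the median log2 fold was 0.39. Their summed level was 648.6, 652.6 and 744.4 CPM in EU and 462.2, 598.5 and 536.0 CPM in PBS, and from lowest to highest the 6 libraries stood in the same order as for Lgi2. The growth factor gene Ccn2 had a log2 fold of 0.60 (edgeR adjusted p = 0.215), the upper-layer neuron gene Cux2 0.58 (0.2555 by the same test) and Tshz2 0.65 (0.2657). No marker of the list passed in edgeR, where 7 of 12 had an unadjusted p under 0.05, against 7.88% of all genes. DESeq2 called 3, Cux2, Ccn2 and Lamp5, against 3.47% of the genes to which it gave an adjusted p. It gave no adjusted p to Nts, Rspo1 and Foxp2. None was at 0 in all libraries. Their part in the values of Lgi2 was not tested.

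Markers of the granule and CA3 fields had lower values in EU, as had Adam11. Of 8 dentate granule neuron markers 7 were lower by sign, with a median log2 fold of -0.19, and their sum was 483.2 to 502.4 CPM in EU and 521.0 to 636.7 CPM in PBS. C1ql2, Plk5 and Calb1 had log2 folds of -0.36, -0.52 and -0.20. Of 8 CA3 and CA2 markers 7 were lower by sign, with a median of -0.29, and their sum was 603.2 to 662.8 CPM in EU and 740.7 to 820.0 CPM in PBS. The neuronal pentraxin gene Nptx1 had a log2 fold of -0.33 (edgeR adjusted p = 0.1235), the scaffold gene Homer3 -0.43 and Bok -0.34. Neither list had a gene that passed in edgeR. An unadjusted p under 0.05 was reached there by 4 dentate and 3 CA3 and CA2 markers, against 7.88% of all genes. DESeq2 called 1 dentate marker, C1ql2, and 3 CA3 and CA2 markers, Nptx1, Homer3 and Bok. It gave no adjusted p to Plk5, Tdo2, Iyd, Cacng5 and Map3k15. It called 3.47% of the genes to which it gave an adjusted p. Both sums were lowest in EU replicate 2 and highest in PBS replicate 1. Adam11 was instead lowest in EU replicate 3 and highest in PBS replicate 3. No marker of either list was at 0 in all libraries, and their part in the values of Adam11 was not tested.

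For the other cell type lists the groups overlapped. CA1 markers were 4 higher and 2 lower by sign with a median log2 fold of 0.11, with Fibcd1 at -0.51 and Wfs1 at 0.51. Their summed level was 578.1 to 699.1 CPM in EU and 519.8 to 607.2 CPM in PBS. GABAergic interneuron markers were 8 higher of 10 with a median of 0.07 and sums of 837.6 to 881.0 CPM in EU and 747.7 to 882.0 CPM in PBS; Reln, Pvalb and Vip had 0.26, 0.18 and 0.22. Astrocyte markers had a median of 0.05 (Gfap 0.21, Aldh1l1 0.11, Fgfr3 0.08), with sums of 7151 to 7594 CPM in EU and 7065 to 7222 CPM in PBS. Oligodendrocyte lineage markers had -0.01 (Cspg4 -0.26, Cnp -0.07, Mog -0.11), with sums of 5969 to 6328 CPM in EU and 5935 to 6285 CPM in PBS. Microglia markers had 0.09 (C1qb 0.37, C1qa 0.26, Tmem119 0.16), with sums of 283.1 to 308.9 CPM in EU and 263.0 to 297.6 CPM in PBS. Endothelial and mural markers had 0.03 (Rgs5 -0.13, Tek -0.28, Cldn5 -0.15), with sums of 231.2 to 236.7 CPM in EU and 223.8 to 243.5 CPM in PBS. Choroid plexus and ependymal markers had -0.27 (Foxj1 -0.37, Kl -0.31, Ttr -0.35), with sums of 776.7 to 3782 CPM in EU and 1733 to 5426 CPM in PBS. In these 7 lists 0 of 58 genes passed in edgeR, 7 had an unadjusted p under 0.05 and DESeq2 called 4. Of all genes 7.88% had such a p, and DESeq2 called 3.47% of those to which it gave an adjusted p. It gave no adjusted p to Vip, Dlx1, Tmem119, Aif1, Pecam1, Tek, Abcc9, Otx2 and Aqp1.

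**Figure D4:**
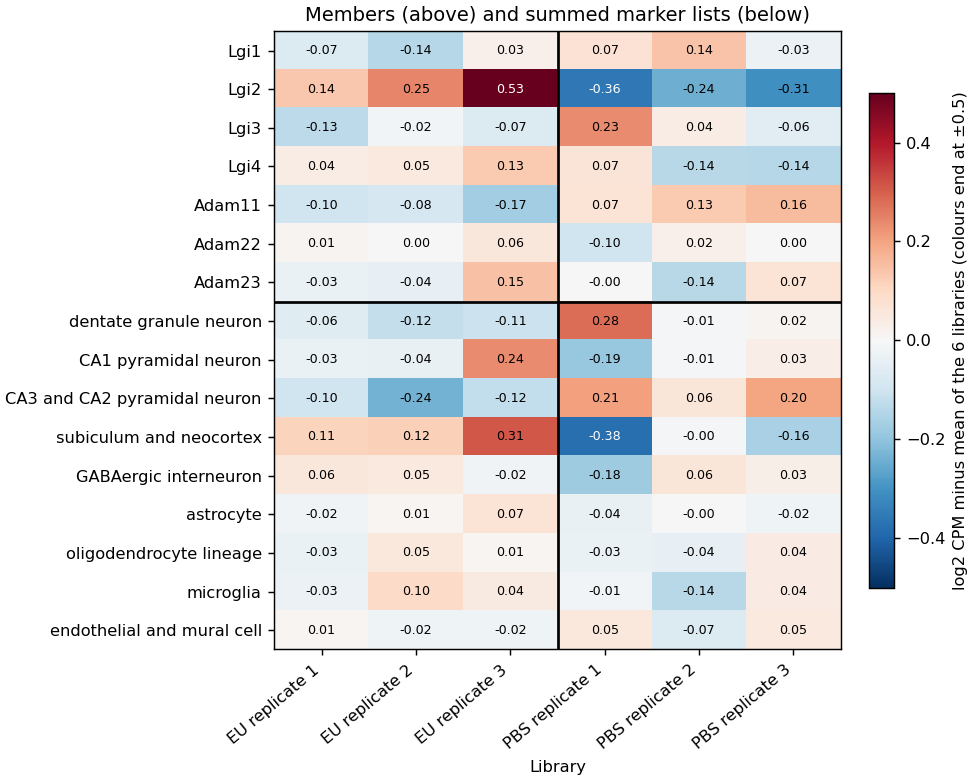
Log2 CPM of the 7 members (above the line) and log2 of the summed CPM of 9 marker lists (below it) in each library, each row centred on its mean over the 6 libraries; EU libraries are on the left and PBS libraries on the right. Lgi2 and the subiculum and neocortex markers are highest in EU replicate 3 (0.53 and 0.31) and lowest in PBS replicate 1 (-0.36 and -0.38). The choroid plexus and ependymal list is not drawn. Its summed CPM is extreme in the same libraries the other way round, lowest in EU replicate 3 (776.7) and highest in PBS replicate 1 (5426).

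The synaptic partners of the LGI1 and ADAM22 complex gave no call in edgeR. Of 24 partner genes 0 passed there, 17 had higher and 7 lower values in EU, and the median log2 fold was 0.05, against 0.011 for all genes tested. An unadjusted p under 0.05 was reached by 4 of the 24, 2 in each direction, where 7.88% of all genes reached it. DESeq2 called 3 of the 24, Cacng8 (adjusted p = 0.000586), Dlg1 (0.0121) and Gria1 (0.0131). It called 3.47% of all genes to which it gave an adjusted p. The AMPA receptor auxiliary subunit gene Cacng8 had 154.4, 162.6 and 164.9 CPM in EU and 193.3, 185.7 and 207.3 CPM in PBS (log2 fold -0.28, SE 0.0594, adjusted p = 0.1978 by edgeR). The scaffold gene Dlg1 had 112.4, 128.5 and 130.3 CPM in EU and 100.3, 95.34 and 106.2 CPM in PBS (log2 fold 0.30, SE 0.0738, adjusted p = 0.2867 by edgeR). For both genes the groups did not overlap, with Cacng8 lower and Dlg1 higher in EU. Of the 24 partners, 3 lay wholly above PBS in EU and 2 wholly below it, against 8.52% and 7.18% of all genes tested.

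Other named parts of that complex had smaller log2 folds. The AMPA receptor subunit gene Gria1 averaged 826.6 CPM in EU and 926.4 CPM in PBS (log2 fold -0.16, edgeR adjusted p = 0.3325). Its EU libraries all lay below its PBS libraries. Dlg4, which encodes PSD-95, averaged 726.3 CPM ± 45.9 in EU and 720.9 CPM ± 44.3 in PBS (n = 3 each, SD), and the log2 fold was 0.01. The stargazin gene Cacng2 had a log2 fold of 0.05 (SE 0.0913) and the Kv1 channel gene Kcna1 -0.01 (SE 0.0585).

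ADAM genes that encode active proteinases and other genes with EAR repeats were read as relatives of the members. Of 9 proteinase-type ADAM genes 7 were tested, with 5 higher and 2 lower by sign and a median log2 fold of 0.04. Of these 7 genes 0 passed in edgeR or had an unadjusted p under 0.05. DESeq2 called 0 and gave no adjusted p to Adam8 and Adam12. Adam15 had a log2 fold of -0.14 (SE 0.0663), Adam9 0.16 (SE 0.0847) and Adam19 -0.11 (SE 0.0961). Adam10, the shedding proteinase of many neuronal proteins, averaged 86.82 CPM ± 2.42 in EU and 86.62 CPM ± 7.32 in PBS (n = 3 each, SD). Of the EAR repeat genes Adgrv1 and Tspear, Adgrv1 was tested, at log2 fold -0.18 (SE 0.233, adjusted p = 0.878 by edgeR).

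**Figure D5:**
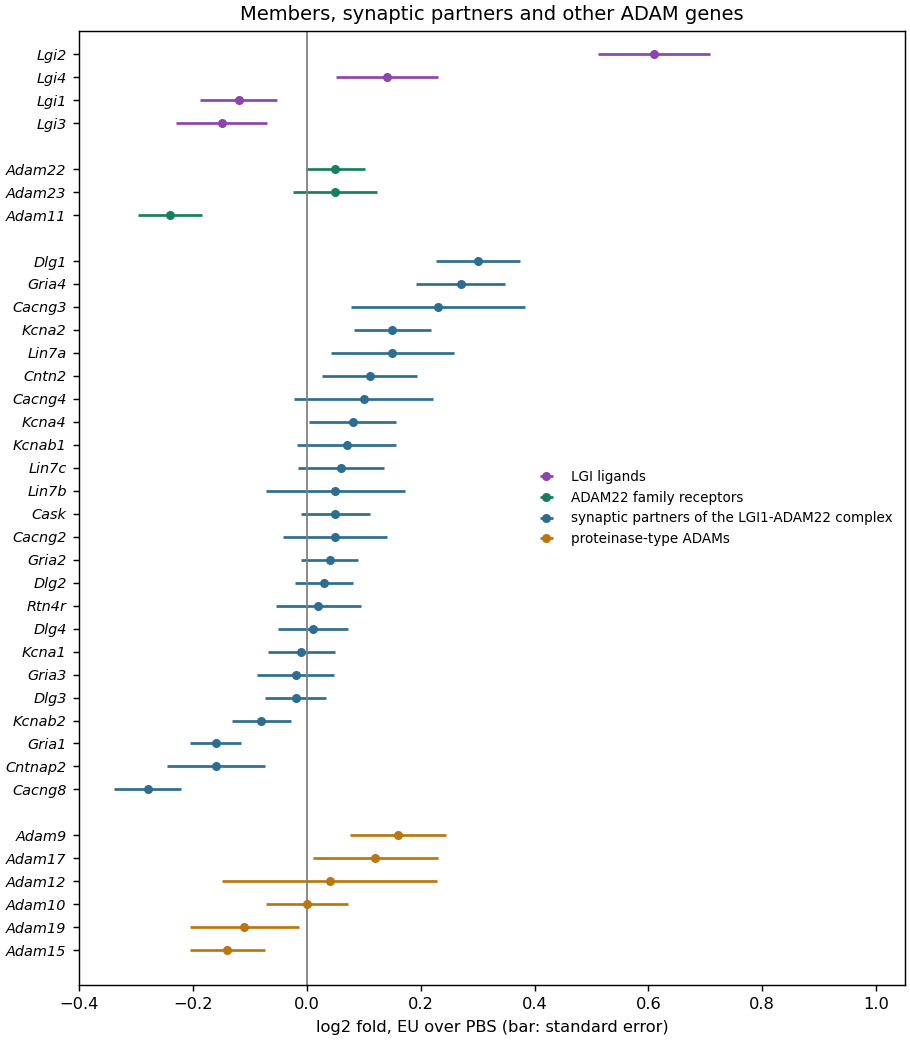
Log2 fold, EU over PBS, with its standard error as the bar, for the members, 24 synaptic partners and the tested proteinase-type ADAM genes with a standard error under 0.5 (Adam8 is not drawn). Lgi2 at 0.61 lies to the right of the other genes drawn, the highest partner is Dlg1 at 0.30 and the lowest is Cacng8 at -0.28.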

How the data were processed

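The authors deposited raw counts of reads per gene for 6 libraries, not normalized. The submitters' processing notes name the genome build GRCm39 and the tools featureCounts 2.0.1, STAR 2.7.10b and bcl2fastq 2.20.0; which annotation release, strand setting and feature were counted is not stated there, so reads of overlapping genes cannot be told apart and a level per kilobase assumes that exons were counted. The table holds 55508 rows, of which 92 are spike-ins with 0 counts and were left out. No library was a copy of another (chi-square per degree of freedom of at least 8.06). The lowest value was that of EU replicates 1 and 2, and the other pairs lay between 18.7 and 44.1. Why these 2 libraries were more alike was not tested.

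Counts were tested with edgeR 4.0.16 (R 4.3.3) by its two-sided quasi-likelihood test, on genes kept by filterByExpr and with TMM factors; the model held treatment alone, and p-values were adjusted over all genes by Benjamini-Hochberg. Standard errors were taken as |log2 fold| over the root of F. The test was first run on simulated data. Other settings were DESeq2 1.42.0, limma 3.58.1 (voom), other scalings and filters, robust estimation, a block for the replicate number and each library left out in turn. Lengths and uridine counts came from GENCODE on GRCm38, matched by identifier for 99.6% of tested genes. Promoters came from RefSeq (GRCm38.p6).

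All members are described. Beyond them the text names, for each other list, the 3 genes with the smallest p (1 gene is not reported here), plus Dlg4, Cacng2, Gria1, Kcna1 and Adam10, the 5 genes nearest to Lgi2 and the nearest 2 for each other member; other genes appear only in figures or as markers singled out after their values were seen. Members and lists were chosen with earlier results of these data known.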

Additional observations from a re-analysis of the deposited data

How the results depend on the processing

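Of the 7 members, 6 kept the sign of their log2 fold in all 16 other settings, and Lgi2 stayed between 0.49 and 0.69. Adam22 kept its sign with folds as low as 0.01. These settings reuse the same libraries, or all but 1 of them, so kept signs are not independent evidence. Adam23 turned to -0.01 with limma voom and library quality weights, to -0.02 without EU replicate 3 and to -0.01 without PBS replicate 2, and with 1 library left out it ranged between -0.02 and 0.10; the cause was not tested. The number of genes called, 0 in edgeR with TMM, was 248 without a filter on low counts, or 0.797% of the 31108 genes then tested. It was 294 with DESeq2, or 3.47% of the 8462 genes to which it gave an adjusted p. It was 12 with limma voom, 48 with voom and library quality weights and 18 with the replicate block, each of 18511 genes. It lay between 0 and 20 when 1 library was left out, with 20 without PBS replicate 2 and 1 without EU replicate 1. Among the members, 1 was called without a filter (Lgi2) and 2 with DESeq2 (Lgi2 and Adam11), against 0 in the other settings, the replicate block and each library left out included. Nothing is read from these member calls, because Lgi2 drew attention to the family. Among the listed genes that are not members, 15 of 121 were called without a filter and 14 of 118 with DESeq2. The 118 include genes to which DESeq2 gave no adjusted p. Of 118, 5 were called with voom and library quality weights and 1 with the replicate block. Between 0 and 2 were called when 1 library was left out. Nothing is read from these counts, because the lists were chosen with earlier results known. Same-numbered libraries deviated together with correlations of 0.064, 0.024 and 0.098, so the numbers were not taken to pair them, although 3 of 3 EU libraries correlated best with their own number. Levels per kilobase assume that counted reads fall in the annotated exons, and for the receptors they depend on the length chosen.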
